A study of Rattus norvegicus with 6 samples.

Results

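Adrenergic, angiotensin and endothelin receptors carry hormonal growth signals into heart muscle cells. The genes described here are Adra1a, Adra1b and Adra1d (the α1-adrenergic receptors), Adrb1 (the β1-adrenergic receptor), Agtr1a (the main angiotensin II receptor of type 1 in rats), Ednra and Ednrb (the endothelin receptors), and Grk5, a kinase that phosphorylates activated receptors. They were found by the gene symbol that the array platform's annotation gives to each probe set, among 14217 genes named there. Of the 8 genes, 6 were matched, and Agtr1a by 2 probe sets, which gave 7 of the 31042 probe sets tested. On the rat assembly GRCr8, Adra1b lies on chromosome 10, Adra1d on chromosome 3, Adra1a on chromosome 15, Agtr1a on chromosome 17, and Adrb1 and Grk5 on chromosome 1. Ednra and Ednrb were not analysed here, so the results cover the adrenergic and angiotensin receptors and the kinase.

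Expression was measured on 6 Affymetrix arrays, 2 per group, in heart muscle cells isolated from Wistar rats 1 to 2 days after birth. The first group received phenylephrine, an agonist of the α1-adrenergic receptors, at 50 µmol/l. The second was stretched biaxially to 112% for 24 h. It grew for 36 h on a silicone membrane coated with collagen, and then spent 24 h without serum before the stretch. The third was the untreated control. All groups were enzyme-digested heart cells purified from fibroblasts on a Percoll gradient and cultured with serum. The sources used here do not state the growth surface of the phenylephrine and control cells or how long phenylephrine was applied. The protocol text of the phenylephrine samples also names endothelin-1 and angiotensin II as further stimuli, but the titles of the 2 arrays name phenylephrine alone. RNA of several cell preparations was pooled before labelling, and the labels do not say whether both arrays of a group stem from different cultures. The spread behind each p-value is thus that between these samples, and it may be technical.

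As background, α1-adrenergic receptors, the type 1 angiotensin receptor and the endothelin receptors couple mainly to Gq proteins, which switch on phospholipase C and protein kinase C and drive hypertrophic growth in cultured newborn rat myocytes. The β1-adrenergic receptor couples to Gs and raises cyclic AMP, the signal for a stronger and faster beat. Receptors that stay occupied are phosphorylated by G protein-coupled receptor kinases, bound by arrestins and taken off the surface.

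Values are log2 signals as deposited. A difference is that of 2 group means, given with its standard error (SE) from a limma model across all probe sets and called where the Benjamini-Hochberg adjusted p was under 0.05. The array medians lay between 8.30 and 8.33 log2. On phenylephrine replicate 2 the spike-in controls were dim, with a median of 9.31 log2 against 10.1 to 10.4 on the other 5 arrays, and it had the narrowest spread of signals (interquartile range 1.70 log2, against 1.80 to 1.92). For hexokinase the 3′ probe set exceeded the 5′ one, a measure of RNA integrity, by 1.65 and 1.88 log2 with phenylephrine, 1.45 and 1.29 with stretch and 1.49 and 1.29 in controls. The same measure for actin was 1.04 and 0.97 log2 with phenylephrine, 1.10 and 1.41 with stretch and 1.18 and 1.39 in controls. For Gapdh it was 0.25 and 0.30 log2 with phenylephrine, 0.36 and 0.48 with stretch and 0.36 and 0.59 in controls. The phenylephrine arrays were thus the highest for hexokinase and the lowest for actin and Gapdh. Of 13 measured markers of heart muscle cells, all were brighter than 90% of probe sets on the control arrays. So were 6 of 14 fibroblast markers, and 1 of the 14 lay below the median signal on all 6 arrays. Of 11 endothelial markers, 5 lay below the median on all 6 arrays.

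Among the member probe sets, 2 fell with phenylephrine and 1 rose. Adra1b fell 1.65-fold, the brighter Agtr1a probe set fell 1.42-fold, and Grk5 rose 1.37-fold. With stretch none of the 7 was called, and Grk5 differed from control by -0.02 log2. The promoters of the 3 called genes are shown because 2 of them fell and 1 rose under the same agonist. They are the 250 bases before the start that RefSeq gives in assembly GRCr8, at chr10:28814348-28814597 on the minus strand for Adra1b, chr17:34435433-34435682 on the minus strand for Agtr1a, and chr1:270014086-270014335 on the plus strand for Grk5, each written 5′ to 3′ along its gene with motif matches in capitals. The gene spans in the same assembly are 28756461 to 28874831 for Adra1b, 34383397 to 34435523 for Agtr1a and 270014314 to 270208294 for Grk5, so the Adra1b window lies wholly inside its gene's span, and the ends of the Agtr1a and Grk5 windows nearest the start also reach into theirs. Which starts these cells use was not analysed here.
Adra1b: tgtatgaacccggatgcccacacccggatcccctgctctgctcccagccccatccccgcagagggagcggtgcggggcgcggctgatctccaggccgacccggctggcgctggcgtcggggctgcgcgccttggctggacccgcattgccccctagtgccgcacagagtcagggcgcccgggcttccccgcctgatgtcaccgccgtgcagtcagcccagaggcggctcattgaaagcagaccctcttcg
Agtr1a: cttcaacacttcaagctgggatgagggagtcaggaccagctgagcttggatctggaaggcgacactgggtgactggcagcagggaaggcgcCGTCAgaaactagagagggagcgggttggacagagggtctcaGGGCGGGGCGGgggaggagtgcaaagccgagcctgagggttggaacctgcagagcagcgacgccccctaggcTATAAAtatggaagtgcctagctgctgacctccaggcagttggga
Grk5: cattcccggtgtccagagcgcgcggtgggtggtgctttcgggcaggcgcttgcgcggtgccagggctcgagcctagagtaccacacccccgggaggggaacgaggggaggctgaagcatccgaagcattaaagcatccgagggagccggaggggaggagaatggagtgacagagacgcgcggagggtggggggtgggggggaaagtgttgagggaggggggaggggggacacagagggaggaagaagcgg

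The motifs searched on both strands were the TATA box (TATAAA), the GC box (GGGCGG), the cyclic AMP response element (TGACGTCA) and its shorter form TGACG, which lies within it, the AP-1 site (TGANTCA) and the CCAAT box (CCAAT). In Agtr1a, a TATA box lay 45 to 40 bases before the start, in the part of the window that lies inside the gene's span, and 2 GC boxes that overlap by a base lay between 117 and 107 bases before it. Agtr1a also held the short form TGACG on the opposite strand, 159 to 155 bases before the start. The promoters of Adra1b and Grk5 held none of these letter strings in this window. Of 33469 rat promoters of the same length, 12.9% held a TATA box, 30.5% a GC box, 18.2% the short form, 1.59% the full cyclic AMP element, 6.34% an AP-1 site and 34% a CCAAT box. The windows of Adra1b, Agtr1a and Grk5 were 70.8%, 60.8% and 67.2% G and C, against a median of 51.2% over all of them. Those of Adra1d and Adrb1, which were not called, were 64% and 72% G and C. The Adrb1 window also held the short form TGACG and a CCAAT box. These matches describe the sequence and say nothing of which factors bind it.

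Adra1b, an α1-adrenergic receptor gene (probe set 1368574_at), had 11.62 and 11.27 log2 with phenylephrine and 11.77 and 11.75 with stretch, against 12.17 and 12.17 in control cells. The groups did not overlap, and both controls were highest. In control cells 97% of probe sets were dimmer, so its signal lay in the bright part of the scale. With phenylephrine the difference from control was -0.73 ± 0.14 log2 (SE; adjusted p = 0.0318). With stretch it was -0.41 ± 0.14 (adjusted p = 0.63), which did not pass.

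The Adra1b signal was lowest on phenylephrine replicate 2, the array with dim spike-in controls. Without that array the difference was -0.55 log2 (adjusted p = 0.0624), and without phenylephrine replicate 1 it was -0.90 (adjusted p = 0.0159). Leaving out control replicate 1 or 2 left -0.72 and -0.73 log2 with adjusted p of 0.172 and 0.204, so the size was kept and the call was not. With quantile normalization, which gives all arrays the same spread, it was -0.76 log2 (adjusted p = 0.000881) with phenylephrine and -0.45 (adjusted p = 0.0276) with stretch.

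Adra1d, another α1-adrenergic receptor gene (probe set 1368534_at), had 8.75 and 8.81 log2 with phenylephrine and 8.91 and 8.88 with stretch, against 9.05 and 9.20 in controls. The groups again did not overlap and stood in the same order as for Adra1b. The difference from control was -0.35 ± 0.09 log2 with phenylephrine (SE; adjusted p = 0.0756) and -0.23 ± 0.09 with stretch (adjusted p = 0.731). Neither passed the threshold.

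Adra1a, the third α1-adrenergic receptor gene (probe set 1369797_at), had 7.74 and 7.93 log2 with phenylephrine and 7.73 and 7.72 with stretch, against 7.69 and 7.77 in controls. Its groups overlapped between each treatment and control. The difference was 0.11 ± 0.07 log2 with phenylephrine (SE; 95% interval -0.06 to 0.28; adjusted p = 0.547) and -0.0016 ± 0.07 with stretch (95% interval -0.17 to 0.17; adjusted p = 1). It was the dimmest member, with 28.1% of probe sets dimmer in control cells, and no detection calls were used, so it is not known whether the signal stood above background.

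Adrb1, the β1-adrenergic receptor gene (probe set 1369806_at), had 8.26 and 8.41 log2 with phenylephrine and 8.39 and 8.31 with stretch, against 8.36 and 8.26 in controls. All groups overlapped, and the 6 arrays spanned 0.15 log2. The difference was 0.02 ± 0.08 log2 with phenylephrine (SE; 95% interval -0.16 to 0.21; adjusted p = 0.926) and 0.04 ± 0.08 with stretch (95% interval -0.14 to 0.22; adjusted p = 1). Its control signal lay at the middle of the scale, with 49.9% of probe sets dimmer.

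**Figure D1:**
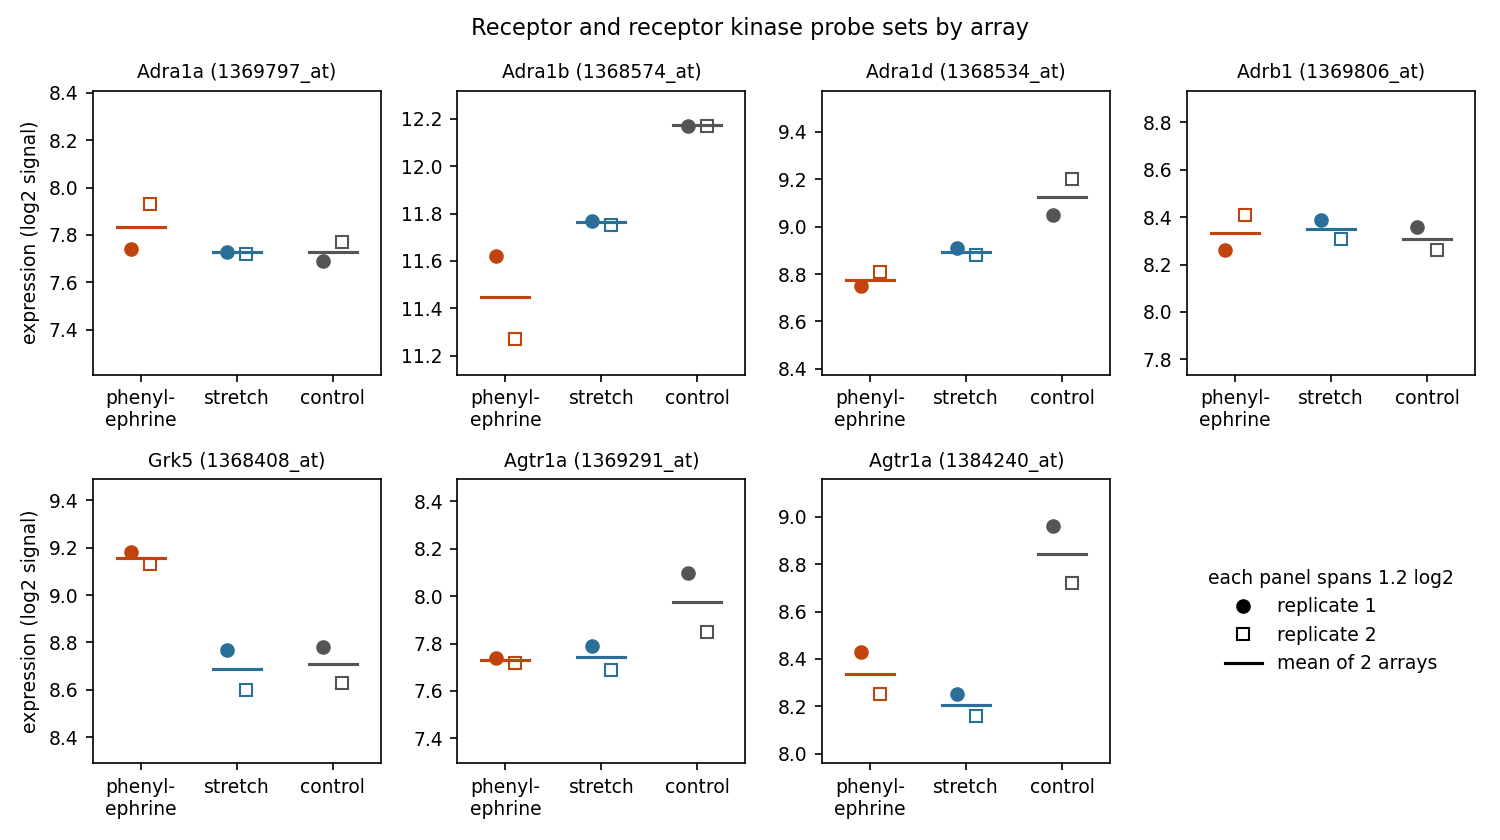
Expression of the 7 probe sets (log2 signal, y axis, each panel spanning 1.2 log2) in phenylephrine, stretch and control cells; symbols are single arrays and lines are group means. Adra1b and Adra1d are lowest with phenylephrine and highest in controls, Grk5 is high on both phenylephrine arrays alone (9.18 and 9.13), and both Agtr1a probe sets are highest in controls.

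Grk5, the receptor kinase gene (probe set 1368408_at), had 9.18 and 9.13 log2 with phenylephrine and 8.77 and 8.60 with stretch, against 8.78 and 8.63 in controls. Both phenylephrine arrays lay above all 4 others, while the stretch and control arrays overlapped. The rise with phenylephrine was 0.45 ± 0.09 log2 (SE; adjusted p = 0.0434). With stretch the difference from control was -0.02 ± 0.09 (95% interval -0.24 to 0.20; adjusted p = 1). Set directly against each other, stretch was 0.47 ± 0.09 log2 lower than phenylephrine, a difference of -0.47 with an adjusted p of 0.0652 that did not pass.

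The Grk5 call was close to the threshold. Each omission of 1 of the 4 arrays ended it, with adjusted p of 0.0939 without phenylephrine replicate 1, 0.0991 without phenylephrine replicate 2, 0.125 without control replicate 1 and 0.336 without control replicate 2, while the difference stayed between 0.37 and 0.53 log2. With quantile normalization the rise over control was 0.49 log2 (adjusted p = 0.00929), and stretch against phenylephrine was -0.51 (adjusted p = 0.0125).

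Agtr1a, the angiotensin receptor gene, was read by 2 probe sets. The brighter one (1384240_at) had 8.43 and 8.25 log2 with phenylephrine and 8.25 and 8.16 with stretch, against 8.96 and 8.72 in controls. Both controls lay above all treated arrays, and the treated groups met at 8.25. The dimmer one (1369291_at) had 7.74 and 7.72 log2 with phenylephrine and 7.79 and 7.69 with stretch, against 8.10 and 7.85 in controls. Here too both controls were highest and the treated groups overlapped.

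The brighter Agtr1a probe set fell by 0.50 ± 0.10 log2 with phenylephrine (SE; adjusted p = 0.039). With stretch its difference was the larger, at -0.64 ± 0.10 log2, but its adjusted p of 0.0648 did not pass. Among all probe sets, 0.058% had a larger fall with stretch and 2.08% had a larger fall with phenylephrine. The dimmer probe set differed by -0.24 ± 0.09 log2 with phenylephrine (adjusted p = 0.212) and by -0.23 ± 0.09 with stretch (adjusted p = 0.739), so the probe sets of the gene had the same direction. Without control replicate 1 the dimmer one differed by -0.12 log2 with phenylephrine and -0.11 with stretch, and without control replicate 2 by -0.37 and -0.36. Over the 6 arrays, which share their treatments, their correlation was 0.908. The stretch difference of the brighter probe set passed when the array medians were equalised (adjusted p = 0.0415) and with quantile normalization (adjusted p = 0.026). It did not pass in limma with a constant variance prior (adjusted p = 0.109) or a robust one (adjusted p = 0.0586). Nor did it pass without the dimmest probe sets (adjusted p = 0.0659) or with only the 2 groups fitted (adjusted p = 0.079). With 1 array left out, the difference ran from -0.76 to -0.51 log2.

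The phenylephrine call of Agtr1a also rested on single arrays. The difference was -0.41 log2 when phenylephrine replicate 2 was left out (adjusted p = 0.151), -0.38 when control replicate 1 was (adjusted p = 0.193) and -0.62 when control replicate 2 was (adjusted p = 0.062). Without phenylephrine replicate 1 it was -0.59 and still passed (adjusted p = 0.0496). Rats have a near-identical second gene, Agtr1b, and whether the Agtr1a probe sets also read it was not tested. The Agtr1b probe set (1369439_at) had 7.26 and 7.34 log2 with phenylephrine and 7.23 and 7.24 with stretch, against 7.28 and 7.18 in controls, with differences of 0.07 ± 0.06 (SE; adjusted p = 0.657) and 0.01 ± 0.06 (adjusted p = 1).

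Agtr1a is also known from cardiac fibroblasts, and in bulk samples fewer cells of a type and less RNA per cell cannot be told apart. The summed linear signal of 14 fibroblast markers was 32800 to 34200 with phenylephrine and 38000 to 39500 with stretch, against 45800 to 46700 in controls. Of the 14, 4 fell with phenylephrine (Dpt, Col3a1, Pdgfra and Postn) and 14 had a difference below 0. With stretch 0 passed, 4 had an unadjusted p under 0.05, and 13 lay below 0. The summed signal of 13 heart muscle markers was 236000 to 259000 with phenylephrine, 210000 to 244000 with stretch and 219000 to 236000 in controls.

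The remaining marker lists were summed in the same way. For 11 endothelial markers the sum was 4780 to 4900 with phenylephrine and 5270 to 5300 with stretch, against 5670 to 5710 in controls, and 2 of the 11 fell with phenylephrine, Kdr (-0.93 log2, adjusted p = 0.00853) and Emcn (-0.55, adjusted p = 0.0079). For 10 macrophage and leukocyte markers it was 7650 to 8100 with phenylephrine and 9570 to 9730 with stretch, against 9710 to 9960 in controls, and 1 of the 10, Cd68, fell with phenylephrine (-0.52 log2, adjusted p = 0.0498). For 10 smooth muscle and pericyte markers it was 11800 to 13600 with phenylephrine and 11700 to 12000 with stretch, against 10300 to 10800 in controls. Of these 10, 4 rose with phenylephrine and 1 fell. Cnn1, a smooth muscle calponin, rose 5.85-fold with phenylephrine (adjusted p = 0.000968) and 2.72-fold with stretch (adjusted p = 0.00502), and Abcc9, a potassium channel subunit, fell with phenylephrine (-1.12 log2, adjusted p = 0.0193). With stretch 0 of the endothelial and 0 of the macrophage markers passed in limma, with 2 and 0 at an unadjusted p under 0.05. The sum of 5 Schwann cell and neuron markers was 1360 to 1420 with phenylephrine and 1370 to 1380 with stretch, against 1340 to 1420 in controls. The part of any of these cell types in the Agtr1a, Adra1b and Grk5 differences was not tested.

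**Figure D2:**
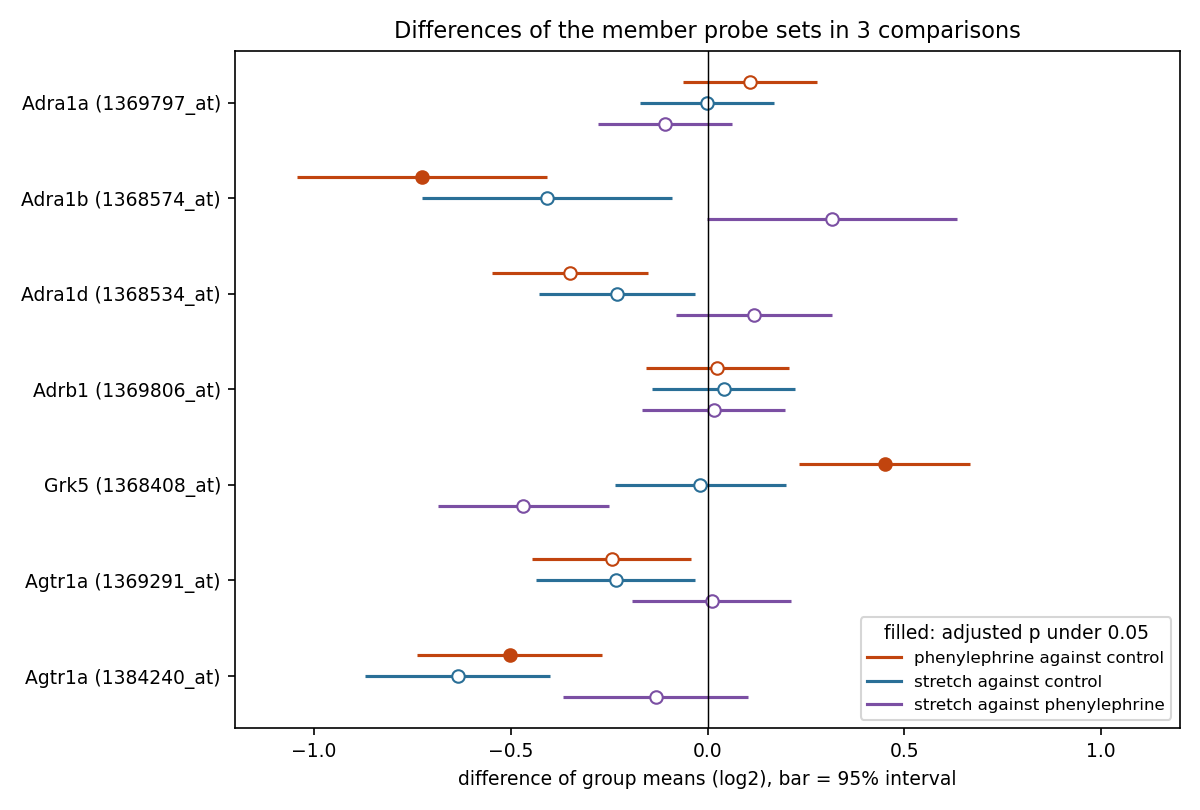
Difference of group means (log2, x axis) of each member probe set in the 3 comparisons, with 95% intervals of the limma fit; filled points have an adjusted p under 0.05. The filled points are Adra1b (-0.73), Agtr1a (-0.50) and Grk5 (0.45) with phenylephrine against control.

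Taking the members as a set, phenylephrine against control called 3 of 7 probe sets, where 3.6% of all 31042 probe sets were called. Calls in the downward direction numbered 2 of 7 against 1.87% of all, and in the upward direction 1 of 7 against 1.73%. The split of all calls rested on single phenylephrine arrays, with 28.9% of calls higher without phenylephrine replicate 1 and 71% without phenylephrine replicate 2, against 48.2% on all arrays. The groups did not overlap for 5 of 7 probe sets, both of Agtr1a among them, where 43.6% of all probe sets did not overlap in either direction. The median difference of the members was -0.24 log2, beside 0.01 over all probe sets. The members were chosen with earlier results of these data known, and Agtr1a gives 2 of the 7 probe sets. The member counts and medians, here and with stretch, thus describe this list and do not show that it responds more than other genes.

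In stretch against control limma called 0 of 7 members, where 0.345% of all probe sets were called, and 4 of 7 had an unadjusted p under 0.05, beside 5.54% of all. The stretch and control groups did not overlap for 4 of 7 probe sets, all lower in stretched cells, where 16.5% of all probe sets were lower without overlap. These were Adra1b, Adra1d and both of Agtr1a. The 16.5% counts lower values alone, while the 43.6% given for phenylephrine counts either direction. For stretch the share in either direction is not given here. The median difference was -0.23 log2, beside 0.01 over all probe sets. The comparisons of phenylephrine and stretch with control share their 2 control arrays, and high control values enter both.

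Stretch against phenylephrine, a difference of means that does not use the control means, asks where the mechanical and the chemical stimulus differ. Growth surface, time without serum and length of treatment are stated for the stretched cells alone. Any difference in these cannot be told apart from the stimulus, here and in stretch against control alike. The comparison called 0 of 7 members in limma, where 1.33% of all probe sets were called, and 1 of 7, Grk5, had an unadjusted p under 0.05, beside 12.5% of all. Adra1b was 0.32 ± 0.14 log2 higher in stretched cells (SE; 95% interval -0.00082 to 0.63; adjusted p = 0.403), and this was 0.14 without phenylephrine replicate 2 and 0.49 without phenylephrine replicate 1. The differences of Adra1d (0.12 ± 0.09), Adra1a (-0.11 ± 0.07), Adrb1 (0.02 ± 0.08) and the Agtr1a probe sets (-0.13 ± 0.10 for the brighter and 0.01 ± 0.09 for the dimmer) did not pass either. For the brighter Agtr1a probe set the 95% interval was -0.37 to 0.10 log2.

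**Figure D3:**
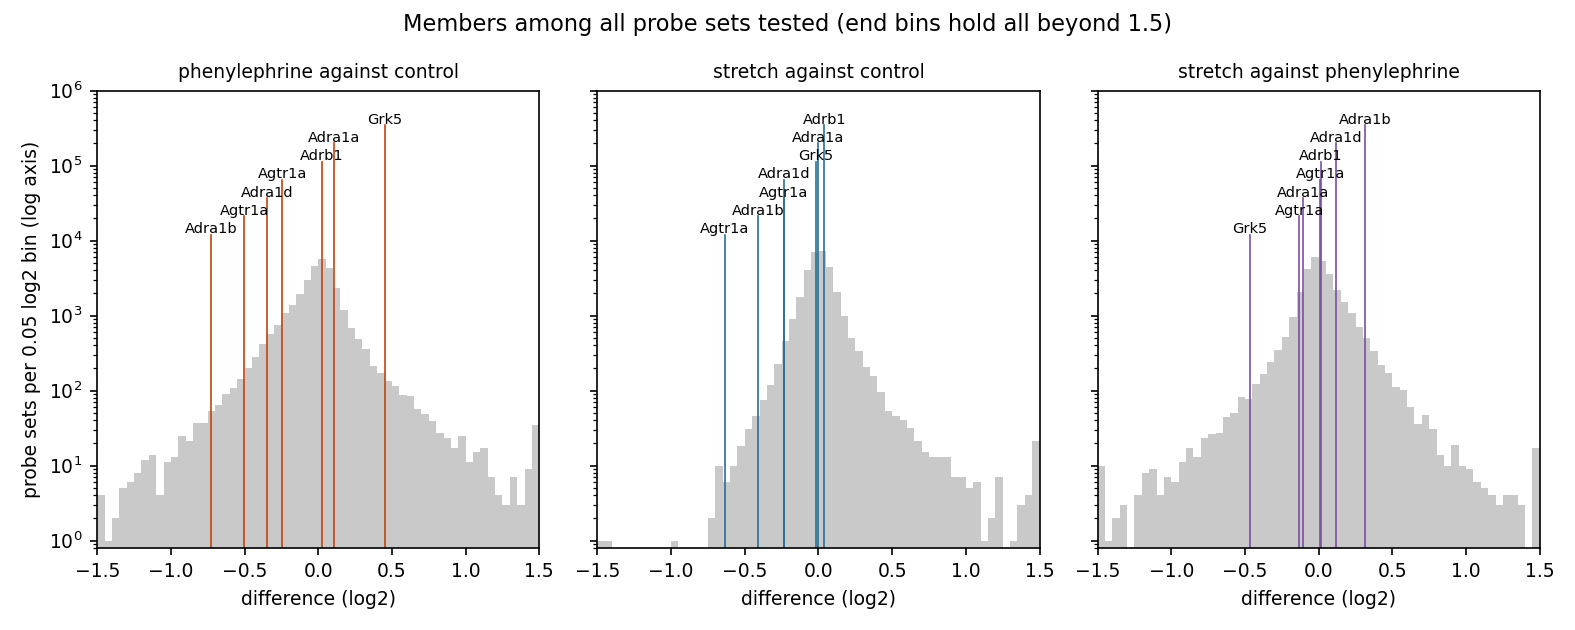
Number of probe sets (y axis, log scale) by difference of group means (x axis, log2, bins of 0.05) in each comparison, with the member probe sets drawn as labelled lines. With stretch the brighter Agtr1a probe set stands at -0.64, where 0.058% of probe sets fell further.

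Ranked by mean, the order of the levels was control, stretch, phenylephrine from high to low for Adra1b and Adra1d. In that order, neither gene had neighbours that differed beyond the threshold, and only the ends of the Adra1b order did. For the brighter Agtr1a probe set the order was control, phenylephrine, stretch, and its first step was called, while the ends of the order were not. For Grk5 it was phenylephrine, control, stretch, with the first step called and the second within the spread of the replicates.

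For each called member, the named genes with the most similar profile over the 6 arrays were found among 14216 genes, by the root mean square difference of profiles centred on their means. For Adra1b these were Tmem276 (0.05 log2), Cc2d2a, a ciliary gene (0.05), and Irx4, a transcription factor of ventricular muscle (0.05). Irx4 had 11.36 and 11.14 log2 with phenylephrine and 11.50 and 11.48 with stretch, against 11.99 and 11.98 in controls. For Agtr1a they were Stxbp6 (0.07 log2), Popdc3, a Popeye family gene of striated muscle (0.07), and Hopx, a homeodomain protein of the heart (0.08). For Grk5 they were the orphan receptor gene Gpr146 (0.04 log2), Sipa1l2 (0.04) and Elovl6, a fatty acid elongase (0.04). These are likenesses of shape over 6 arrays that share treatments.

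Of 73 further genes listed for the same signalling routes, 65 had a probe set. With phenylephrine 5 of 65 rose and 0 fell (7.69%, beside 3.6% of all probe sets), with a median difference of 0.02 log2. With stretch 1 of 65 rose and 0 fell (1.54%, beside 0.345%), with a median of 0.01. The 65 include 5 classic response genes of hypertrophy, which held 3 of the 5 phenylephrine calls and the 1 stretch call. The shares over all 65 thus partly reflect how the list was chosen.

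Of the ligands and the enzymes that make or clear them, 8 of 12 were measured and 0 passed in limma with either stimulus. In each comparison with control, 1 had an unadjusted p under 0.05. That gene was Ece1, the enzyme that releases active endothelin, with 9.33 and 9.31 log2 with phenylephrine and 9.29 and 9.34 with stretch, against 9.52 and 9.57 in controls. The treated arrays all lay below both controls, with differences of -0.22 ± 0.09 log2 with phenylephrine (SE; adjusted p = 0.251) and -0.23 ± 0.09 with stretch (adjusted p = 0.746). In stretch against phenylephrine the gene at an unadjusted p under 0.05 was Dbh (-0.26 ± 0.08 log2), which did not pass in limma (adjusted p = 0.225). Edn1, which encodes endothelin-1, differed by -0.04 ± 0.08 log2 with phenylephrine (adjusted p = 0.866) and by 0.00073 ± 0.08 with stretch (adjusted p = 1). Of the other receptors of the 3 families, 8 of 9 were measured, and 0 passed in limma or had an unadjusted p under 0.05 in any comparison. The largest value with phenylephrine was that of Adra2a, an α2-adrenergic receptor gene (-0.10 ± 0.07 log2; adjusted p = 0.574), and with stretch that of Atp6ap2, which binds prorenin (0.15 ± 0.17; adjusted p = 1). Atp6ap2 was bright, with signals of 11.27 to 11.72 log2. The rest of these receptors had signals of at most 8.33 log2, near or below the array medians. Whether they stood above background was not tested.

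Of 12 receptor kinases, arrestins and receptor partners, 1 rose with phenylephrine and 0 fell. Ramp3, a membrane partner of the calcitonin receptor family (probe set 1387389_at), had 8.36 and 8.57 log2 with phenylephrine and 7.97 and 7.88 with stretch, against 7.83 and 7.78 in controls. It rose 1.58-fold over control with phenylephrine (0.66 ± 0.08 log2, SE; adjusted p = 0.00684). Stretch against phenylephrine was -0.54 ± 0.08 log2 for Ramp3 (adjusted p = 0.0274). With stretch the largest value of this group against control was that of Ramp2, a related partner (-0.21 ± 0.09; adjusted p = 0.896). With phenylephrine Ramp2 differed by more, at -0.37 ± 0.09 log2, but did not pass in limma (adjusted p = 0.081). Of the 12 genes, 3 had an unadjusted p under 0.05 with phenylephrine and 1 with stretch.

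Of 10 measured G protein subunits 0 passed in limma with either stimulus, with 1 and 0 at an unadjusted p under 0.05 for phenylephrine and stretch. Gnai2, an inhibitory α subunit, had 11.56 and 11.52 log2 with phenylephrine, against 11.83 and 12.01 in controls (-0.39 ± 0.15; adjusted p = 0.259). With stretch the largest value was that of Gnai1 (0.24 ± 0.15; adjusted p = 1). Of 22 measured effectors 1 rose with phenylephrine. Prkca, which encodes protein kinase C α (probe set 1372176_at), had 8.69 and 8.64 log2 with phenylephrine, against 8.27 and 8.38 in controls, a rise of 0.34 ± 0.07 log2 (SE; adjusted p = 0.0435). With stretch Prkca differed by 0.03 ± 0.07 (adjusted p = 1), and the largest value was that of Rapgef4, a cyclic AMP sensor (0.25 ± 0.16; adjusted p = 1). With phenylephrine Rapgef4 differed by more than Prkca, at 0.66 ± 0.16 log2, but did not pass in limma (adjusted p = 0.0728). Its signal was low, at 7.80 and 7.33 log2 with phenylephrine against 7.08 and 6.73 in controls.

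Among 5 classic response genes of hypertrophy, 3 rose with phenylephrine. Nppb and Nppa, which encode natriuretic peptides, rose 2.18-fold (adjusted p = 0.00418) and 2.08-fold (adjusted p = 0.00504), and Acta1, which encodes skeletal actin, rose 2.13-fold (adjusted p = 0.00373). With phenylephrine the other 2, Ankrd1 and Rcan1, did not pass (1.28-fold and 1.25-fold; adjusted p = 0.144 and 0.282). With stretch 1 of 5 rose, which was Nppb, by 2.08-fold (adjusted p = 0.0154). Nppa and Acta1 were 1.67-fold and 1.64-fold higher with stretch but did not pass in limma (adjusted p = 0.0717 and 0.0593). All 5 differences with stretch lay above 0, and 4 had an unadjusted p under 0.05. The 3 called member probe sets changed by 1.37-fold to 1.65-fold.

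**Figure D4:**
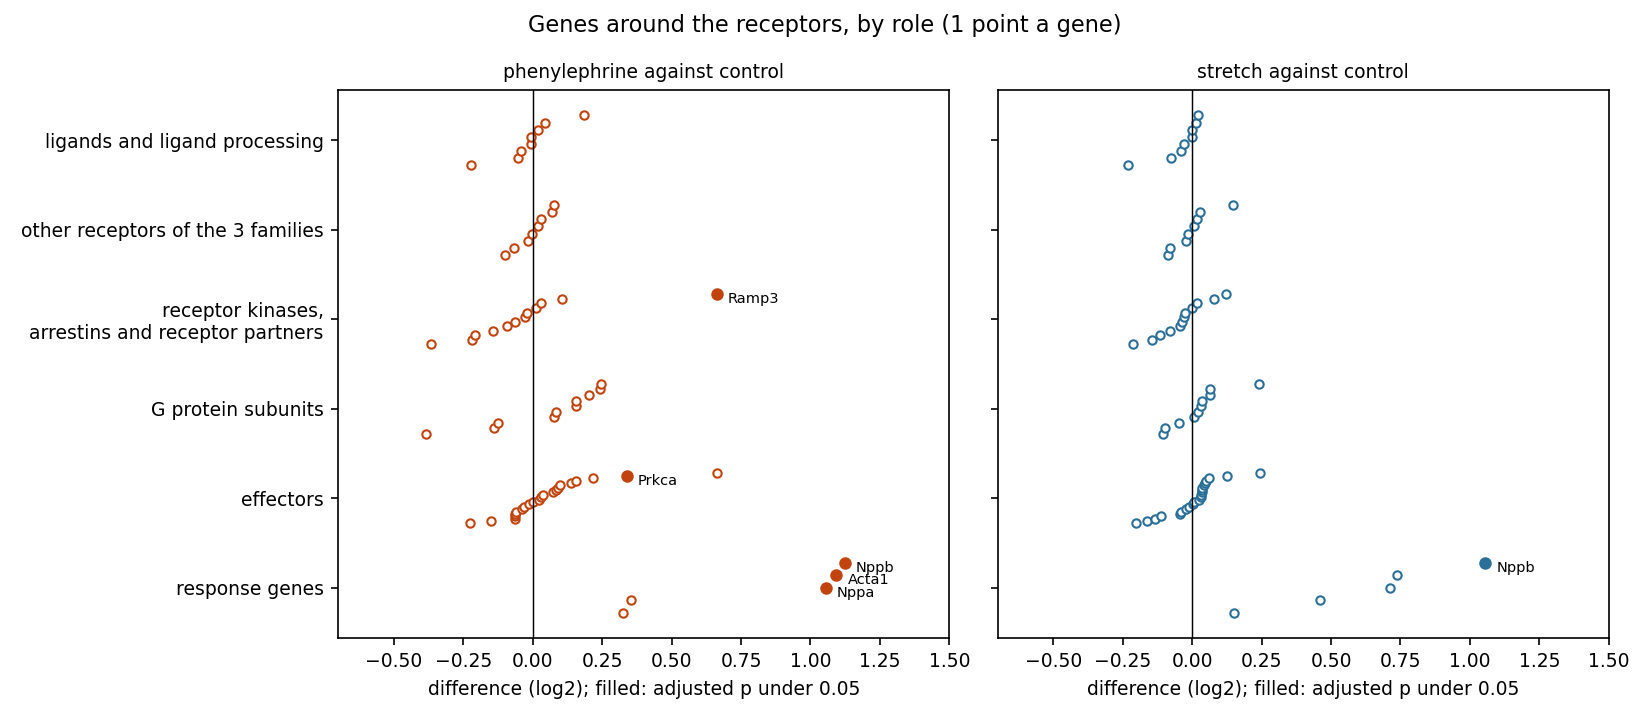
Difference from control (log2, x axis) of 65 listed genes around the receptors, grouped by role, with phenylephrine (left) and stretch (right); 1 point a gene, filled where the adjusted p was under 0.05. Ramp3, Prkca, Nppb, Acta1 and Nppa are filled with phenylephrine and Nppb with stretch.

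**Figure D5:**
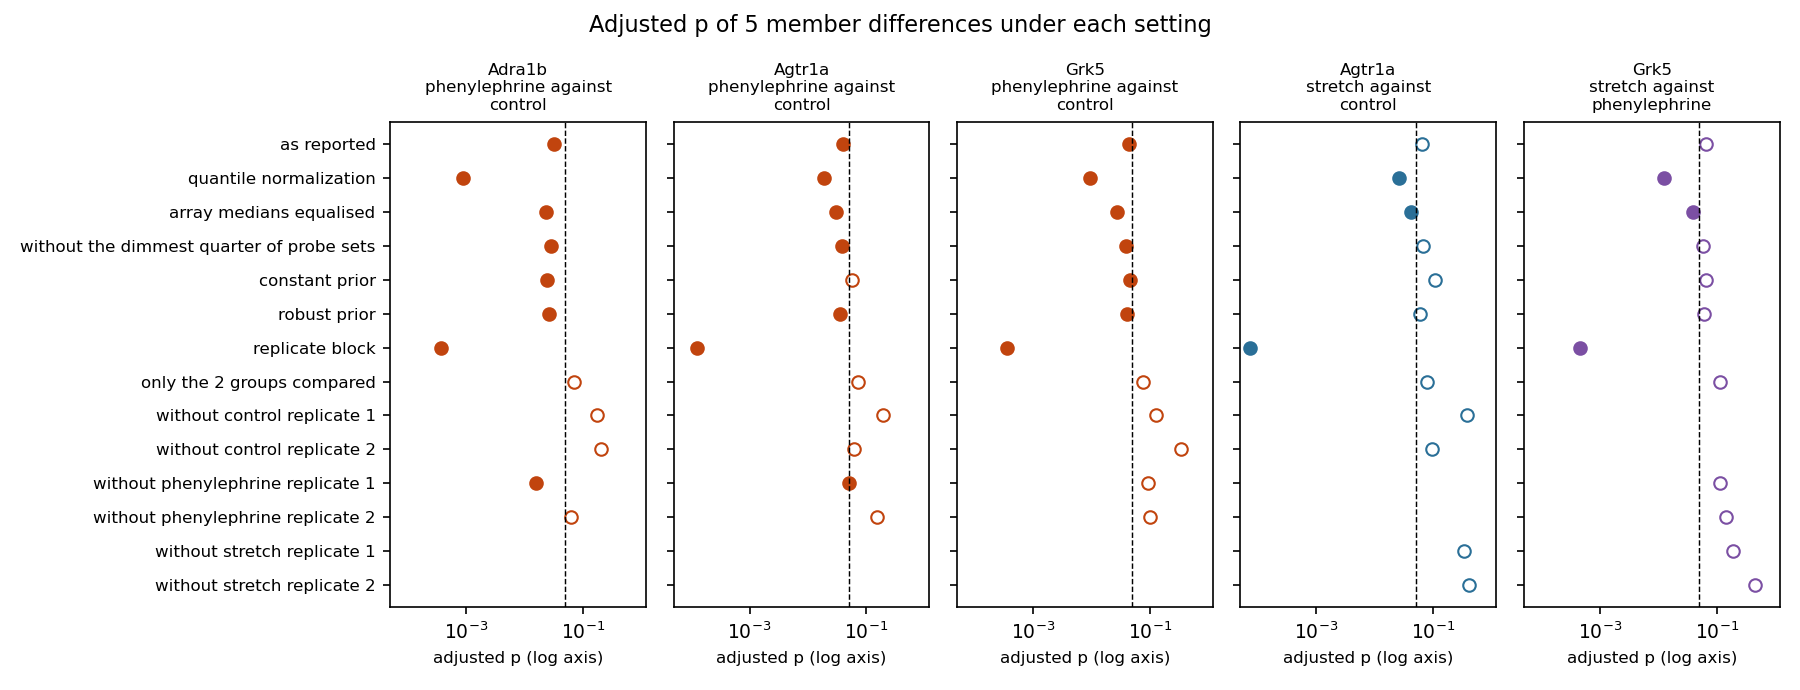
Adjusted p (x axis, log scale) of 5 member differences under each setting of the fit; the dashed line is 0.05 and filled points lie below it. The 3 phenylephrine calls hold with quantile normalization and are lost when only the 2 groups compared are fitted.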

How the data were processed

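Expression was measured in 6 samples of RNA, each on 1 single-channel Affymetrix array, in 3 groups of 2 taken from the sample titles. The deposited table gives 1 log2 value per probe set and array. The log2 unit was taken from the values, which lie between about 6 and 15. The sources used here do not state the authors' probe set summary, background correction or normalization. Of 31099 probe sets, 57 array controls were left out. Symbols came from the platform annotation of 2016, in which 20826 tested probe sets had 1 symbol, 436 several and 9780 none. Sequences and positions came from RefSeq, assembly GRCr8.

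limma 3.58.1 (R 4.3.3) was used to fit the means of the groups on the 6 arrays together (lmFit, then eBayes with its trend option; 3 residual and 4.8 prior degrees of freedom, two-sided, Benjamini-Hochberg over 31042 probe sets). The 95% intervals use the same SE and degrees of freedom and are not adjusted. The fit was tested on simulated data whose errors were independent between arrays. That test does not cover replicate differences shared between groups. For listed genes the probe set with the highest mean was used. Named were all members, up to 4 called genes of each list with the largest change or else the gene with the largest change, and the 3 genes with the most similar profile. The members and lists were chosen with earlier results of these data known. The number of arrays limits the precision. Alternatives were 2 normalizations, a filter on dim probe sets, 2 variance priors, fits of 2 groups, a replicate block, and omission of each array.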

Additional observations from a re-analysis of the deposited data

How the results depend on the processing

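Of 147 member values computed with another normalization, filter, prior or model, 132 kept their direction and their side of the threshold. With quantile normalization the probe sets called numbered 2790 for phenylephrine against control, 386 for stretch against control (72.5% of them higher, against 88.8% in the fit reported) and 1527 for stretch against phenylephrine, the members called 2 for stretch against control and 1 for stretch against phenylephrine, and the related genes called 3 and 5. In that last comparison Adrb1 turned to -0.0032 log2. With equalised medians 1 member was called in each comparison with stretch, and the dimmer Agtr1a probe set turned to -0.00097 log2 for stretch against phenylephrine. Fitting only the 2 groups compared gave 661 probe sets and 0 members for phenylephrine against control, and 230 probe sets for stretch against phenylephrine. With the constant prior, the Agtr1a call with phenylephrine was lost (adjusted p = 0.0556). The causes were not tested.

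The labels do not say whether equal replicate numbers pair the arrays. Differences between replicates 1 and 2 correlated between groups across probe sets (0.487 for control and phenylephrine, 0.673 for control and stretch, 0.534 for phenylephrine and stretch), a hint from the data, not the design. With the replicate block, the called probe sets, members and related genes were 5384 (40% higher, against 48.2%), 5 and 13 (8 higher, 5 lower) for phenylephrine against control, 1028 (69.9% higher), 1 and 5 for stretch against control, and 3734 (65.3% higher, against 54%), 1 and 6 for stretch against phenylephrine. The members added with phenylephrine were Adra1d (adjusted p = 0.00315) and the dimmer Agtr1a probe set (adjusted p = 0.0213). The member called with stretch against control was the brighter Agtr1a probe set (adjusted p = 7.4e-05), and that in stretch against phenylephrine was Grk5 (adjusted p = 0.000454).

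With 1 array left out, which leaves 1 array in a group that is assumed to vary like the others, the probe sets called ran from 189 to 1249 for phenylephrine against control, 26 to 47 for stretch against control and 51 to 473 for stretch against phenylephrine. The counts moved by over 1.5 times without control replicate 1 (263) or 2 (189) in the first, without control replicate 1 (37) or 2 (27) or stretch replicate 1 (26) or 2 (47) in the second, and without phenylephrine replicate 2 (264) or stretch replicate 1 (51) or 2 (65) in the third. For phenylephrine against control 226 were lower without phenylephrine replicate 2 and 888 without phenylephrine replicate 1, against 579 on all arrays. Members called ran from 0 to 2 in the first and were 0 in the others, and related genes from 3 to 5, 0 to 1 and 0 to 1. Small differences changed sign within these ranges (log2): Adrb1 from -0.05 to 0.10 with phenylephrine, -0.0081 to 0.09 with stretch and -0.06 to 0.09 between the stimuli, Adra1a from -0.04 to 0.04 and Grk5 from -0.10 to 0.07 with stretch, and the dimmer Agtr1a probe set from -0.04 to 0.06 between the stimuli.

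No detection calls were used, so how far the dimmer members, Adra1a and the dimmer Agtr1a probe set, stood above background was not tested.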
